A study of Homo sapiens with 6 samples.

Results

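The immediate early genes EGR1, EGR2, EGR3, FOS, FOSB, FOSL1, JUN, JUNB, ATF3 and ARC were followed through the RNA of MDA-MB-231 cells with and without the kinases MRCKα and MRCKβ. They were picked by symbol and are 10 of the 17064 genes listed. The choice was made with their values in these libraries known, so their levels and fold changes are given as a description and without p-values. MDA-MB-231 is a human triple-negative breast cancer line from a metastatic site. The 6 libraries comprised 2 of vector control cells (vector 1 and vector 2, separate transductions of the empty vector), 1 of MRCKα KO cells (CDC42BPA knockout), 1 of MRCKβ KO cells (CDC42BPB knockout) and 2 of DKO cells (DKO 1 and DKO 2), in which both genes had been targeted, with different guides for DKO 1 and DKO 2. All cells, the controls included, had been transduced with lentivirus and drug-selected, were not cloned, and were lysed as subconfluent cultures. Which guide was used for which library is not given in the sources used here.

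Immediate early genes are transcribed within minutes of a stimulus, without new protein synthesis. Many are switched on when ERK and related kinases phosphorylate factors already bound at the promoter, above all serum response factor with its ETS partners on the CArG box, and CREB or ATF proteins on the cAMP response element (CRE). The EGR proteins are zinc finger factors that bind GC-rich sites. FOS and JUN proteins pair through leucine zippers to form AP-1, ATF3 is a related leucine zipper factor induced by stress, and ARC is a cytoskeleton-associated protein best known from synapses and not a transcription factor.

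The RefSeq promoter windows of the members, from 250 bases before to 50 bases after a transcription start on GRCh38.p14, are shown because elements of the kinds named above are known to control this class of gene. Windows were found for 7 of the 10 members. They are printed for EGR1, for the third of 3 starts of EGR2, for FOS, FOSB and JUNB, and for the first of 2 starts of ATF3. The EGR1 window is chr5:138465229-138465528 on the plus strand, that of EGR2 is chr10:62816317-62816616 on the minus strand, that of FOS is chr14:75278578-75278877 on the plus strand, that of FOSB is chr19:45467746-45468045 on the plus strand, that of JUNB is chr19:12791236-12791535 on the plus strand, and that of ATF3 is chr1:212565157-212565456 on the plus strand. Capitals mark CArG boxes, CRE half-sites (TGACG on either strand), the CRE-like variant TGACATCA and EGR sites (GCGNGGGCG).
EGR1: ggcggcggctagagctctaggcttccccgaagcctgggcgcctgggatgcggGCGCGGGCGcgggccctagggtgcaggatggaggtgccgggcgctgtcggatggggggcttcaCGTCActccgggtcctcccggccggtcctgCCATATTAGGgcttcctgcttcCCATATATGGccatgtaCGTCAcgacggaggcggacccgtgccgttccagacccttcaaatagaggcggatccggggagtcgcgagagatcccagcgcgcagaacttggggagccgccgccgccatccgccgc
EGR2: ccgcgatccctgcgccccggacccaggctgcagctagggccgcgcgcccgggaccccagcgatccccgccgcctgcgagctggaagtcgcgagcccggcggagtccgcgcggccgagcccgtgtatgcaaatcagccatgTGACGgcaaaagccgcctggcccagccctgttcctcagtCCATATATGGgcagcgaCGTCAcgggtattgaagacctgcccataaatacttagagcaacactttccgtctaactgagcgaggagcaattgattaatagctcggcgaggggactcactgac
FOS: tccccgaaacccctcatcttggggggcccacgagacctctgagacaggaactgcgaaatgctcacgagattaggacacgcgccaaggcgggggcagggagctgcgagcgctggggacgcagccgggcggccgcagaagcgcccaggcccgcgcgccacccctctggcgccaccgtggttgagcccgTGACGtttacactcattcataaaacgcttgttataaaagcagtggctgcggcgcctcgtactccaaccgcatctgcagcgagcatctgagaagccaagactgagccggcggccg
FOSB: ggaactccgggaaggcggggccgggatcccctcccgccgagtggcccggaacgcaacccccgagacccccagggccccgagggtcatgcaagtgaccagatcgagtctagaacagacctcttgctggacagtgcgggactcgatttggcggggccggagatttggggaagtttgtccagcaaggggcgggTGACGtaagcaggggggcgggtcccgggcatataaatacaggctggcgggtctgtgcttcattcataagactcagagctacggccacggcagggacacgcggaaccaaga
JUNB: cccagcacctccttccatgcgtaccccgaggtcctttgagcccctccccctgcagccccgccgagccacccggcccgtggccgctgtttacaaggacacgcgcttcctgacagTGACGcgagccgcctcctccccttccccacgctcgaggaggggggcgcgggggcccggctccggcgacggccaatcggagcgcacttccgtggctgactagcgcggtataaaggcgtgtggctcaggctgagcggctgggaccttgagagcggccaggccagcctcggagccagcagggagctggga
ATF3: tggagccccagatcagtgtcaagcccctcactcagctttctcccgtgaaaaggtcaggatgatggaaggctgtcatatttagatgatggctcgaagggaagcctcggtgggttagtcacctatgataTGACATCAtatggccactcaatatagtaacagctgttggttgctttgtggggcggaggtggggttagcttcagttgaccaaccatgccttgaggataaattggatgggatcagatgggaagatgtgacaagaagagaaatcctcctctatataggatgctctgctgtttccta

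EGR1 held 2 CArG boxes, which began at positions -105 and -83 from the start, with a CRE half-site on each side of the pair at -135 and -66. A CArG box was present in 1.29% of all 35116 windows of this length, and 11 windows (0.0313%) held at least 2. The third start of EGR2 had a similar arrangement, with 1 CArG box at -71 between CRE half-sites at -110 and -54. CRE half-sites stood at -64 in FOS, -60 in FOSB, -137 in JUNB and -123 in JUN, but they are common, with 24.6% of all windows holding at least 1. The variant TGACATCA was found at -67 in JUN and at -123 in the first window of ATF3, and in 2.61% of all windows. EGR sites, held by 9.43% of all windows, were present in EGR1 at -198 and in the second window of EGR2 at 9. The TATA box (TATAAA), held by 11.5% of all windows, stood at -33 in FOS, -30 in FOSB and -31 in JUNB, and at -230 in the second window of ATF3. The ETS core was searched only as CCGGAA (17.2% of all windows), which was found in FOSB alone among the members, at -205. Other forms of the ETS site, such as GGAA without CC before it, were not searched, so their absence is not shown for any member. None of the 10 windows held the full CRE (TGACGTCA, which contains the half-site and was in 1.85% of all windows), the AP-1 site (TGANTCA, 7.71%) or the NF-κB site (5.91%). Both strands were searched, and a match is a description of the letters only. A CArG box was counted only as CCWWWWWWGG, where W is A or T. Elements outside the windows or with other letters were not searched, so a window without a match does not show that the gene lacks the element.

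The expected counts, which are estimated reads per gene, summed to between 10349898 and 10657857 per library. FPKM values are scaled to transcript length and library total, so that levels can also be compared between genes. The cells had the markers of a mesenchymal-like line, with VIM between 1532.08 and 2052.46 FPKM, while CDH1 reached at most 0.64 and ESR1 at most 0.87. Of the 8 genes listed as high in this line, TGFBI was low (2.67 to 7.28), and of the 8 listed as low, KRT8 was high (137.58 to 220.07). The 5 listed genes of HEK293T, the virus-producing line, summed to 0.95 to 2.13 FPKM, and 10 listed leukocyte and fibroblast genes to 79.0 to 112 FPKM, mostly CD68. In neither list did both DKO libraries lie above both vector libraries for any gene. The HEK293T genes NEFM and LIN28B, singled out after their values were seen, had 19 and 10 counts in MRCKα KO, 2 and 1 in DKO 1 and 0 in the other 4 libraries, and their part in the values of MRCKα KO was not tested. The targeted genes were still transcribed in every library, with CDC42BPA at 29.43 in MRCKα KO and 26.06 to 28.31 in DKO against 23.32 and 36.43 in vector, and CDC42BPB at 25.7 in MRCKβ KO and 23.42 to 23.47 in DKO against 29.11 and 30.28. RNA levels therefore do not check the knockout labels. The study itself checked its MDA-MB-231 knockout lines by immunoblot and reported very efficient deletion of the proteins.

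EGR1 (gene ID 1958, chromosome 5, 138465479 to 138469303) had 12.49 and 6.81 FPKM in the vector libraries, 23.23 with MRCKα KO, 18.11 with MRCKβ KO, and 37.51 and 70.82 in the DKO libraries. All 4 knockout libraries lay above both vector libraries, both DKO libraries lay above both single knockouts, and the DKO libraries themselves were 1.89-fold apart. These values rest on 222 to 2343 counts, and in bulk RNA more expressing cells and more RNA per cell cannot be told apart. In DKO the mean was 54.2 ± 23.6 FPKM against 9.65 ± 4.02 in vector (SD, n = 2 each), and the log2 fold change was 2.46 (standard error 0.39). Leaving out 1 library at a time moved it between 1.94 and 2.97. EGR1 made up 93.0% to 99.1% of the summed FPKM of the 4 EGR genes in each library.

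EGR2 (gene ID 1959, chromosome 10), a close relative of EGR1 best known from hindbrain and Schwann cells, was at the edge of detection. It had 0 and 0.29 FPKM in the vector libraries, 0.11 with MRCKα KO, 0.21 with MRCKβ KO, and 0.44 and 1.28 in the DKO libraries, from 0, 8, 3, 6, 13 and 39 counts. Both DKO libraries were above both vector libraries, while the single knockouts lay between the vector libraries. A count of 0 at this depth allows up to 3 counts, or 2.81e-05% of vector 1. The log2 fold change in DKO was 2.63 with a standard error of 1.12, and came to 1.65 without DKO 2 and 1.64 without vector 1. Without vector 2 the control is at 0, and DKO was at least 8.8-fold higher, taking 3 counts in vector 1 as the floor.

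EGR3 (gene ID 1960, chromosome 8) had 0.15 and 0.22 FPKM in the vector libraries, 0.05 with MRCKα KO, 0.12 with MRCKβ KO, and 0.19 and 0.31 in the DKO libraries. Each value rests on 2 to 13 counts, EGR3 did not pass the filter on low counts, and DKO 1 lay between the vector libraries. The lowest library was vector 2 for EGR1, vector 1 for EGR2 and MRCKα KO for EGR3. No difference of EGR3 was detectable at this depth, since its count ratio to the pooled vector libraries was 0.253 in MRCKα KO with an exact 95% counting interval from 0.0283 to 1.08, and 1.62 in DKO 2 with an interval from 0.719 to 3.6.

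**Figure D1:**
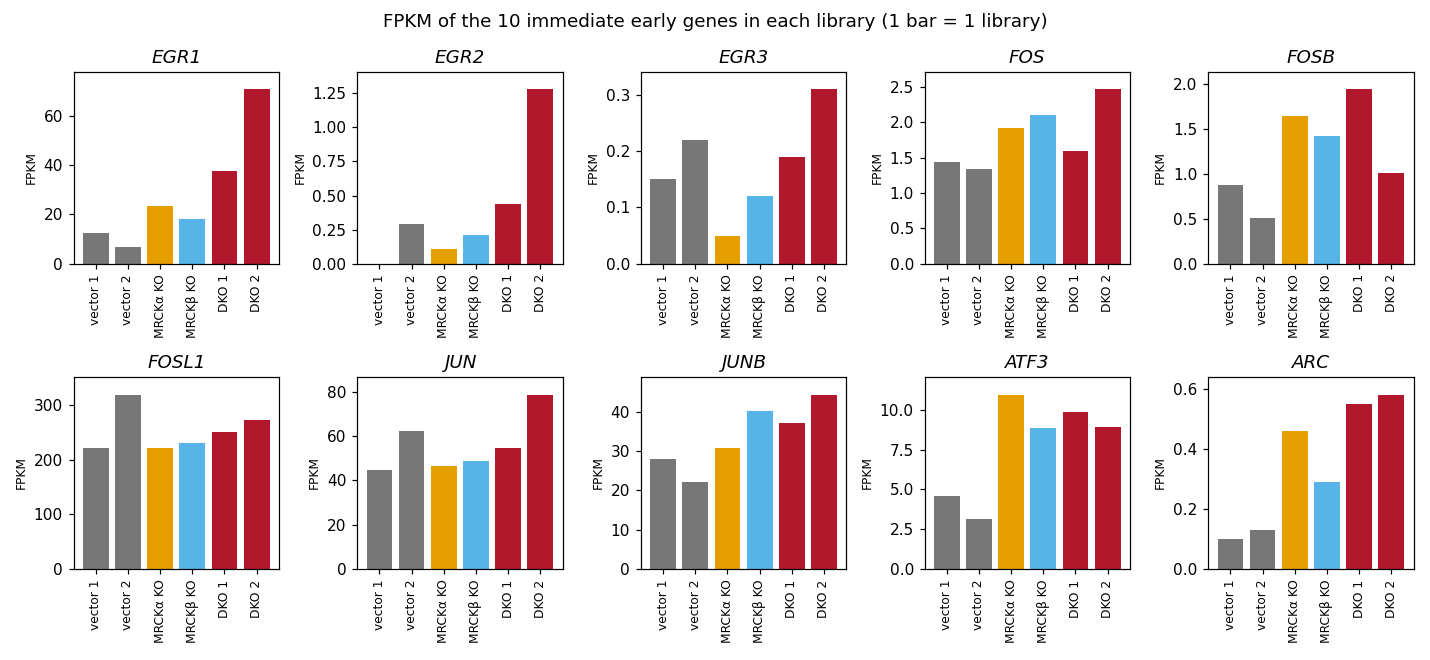
FPKM (linear axis from 0, a separate scale for each gene) of the 10 members, 1 bar per library, with vector in grey, MRCKα KO in orange, MRCKβ KO in blue and DKO in red. EGR1 reaches 70.82 in DKO 2 against at most 12.49 in vector, ATF3 lies between 8.85 and 10.96 in all 4 knockout libraries against 3.15 and 4.56 in vector, and FOSL1 is highest in vector 2.

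FOS (gene ID 2353, chromosome 14), the founding member of its family, had 1.44 and 1.34 FPKM in the vector libraries, 1.92 with MRCKα KO, 2.1 with MRCKβ KO, and 1.6 and 2.47 in the DKO libraries. The groups did not overlap, but DKO 1 was only 1.15-fold above the vector mean. Its counts ran from 30 to 56, and the counting interval of the ratio to the pooled vector libraries reached from 0.74 to 1.76 in DKO 1 and from 0.916 to 2.07 in MRCKα KO. In DKO the log2 fold change was 0.53 (standard error 0.39).

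FOSB (gene ID 2354, chromosome 19), which can replace FOS in AP-1, had 0.87 and 0.51 FPKM in the vector libraries, 1.64 with MRCKα KO, 1.42 with MRCKβ KO, and 1.94 and 1.01 in the DKO libraries. All knockout libraries were above both vector libraries, although DKO 2 came close to vector 1 and its count ratio to the pooled vector libraries had a counting interval from 0.931 to 2.22. The order among the DKO libraries was opposite to that of EGR1, with DKO 1 at 1.92-fold the level of DKO 2. The log2 fold change in DKO was 1.06 (standard error 0.48), from 20 to 75 counts per library, and it came to 0.50 without DKO 1 and 1.47 without vector 1.

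FOSL1 (gene ID 8061, chromosome 11), which encodes FRA-1 and is known as the prominent FOS protein of mesenchymal-like breast cancer cells, was by far the most abundant member. It had 222.07 and 319.85 FPKM in the vector libraries, 221.29 with MRCKα KO, 230.15 with MRCKβ KO, and 250.57 and 272.78 in the DKO libraries. The vector libraries were 1.44-fold apart and enclosed every knockout library except MRCKα KO, which was just below vector 1. In DKO the log2 fold change was -0.07 (standard error 0.19), and it ranged from -0.32 without vector 1 to 0.23 without vector 2, so that its sign depended on the vector library. FOSL1 accounted for 86.5% to 90.0% of the summed FPKM of the 4 FOS family genes and FOSL2 for 8.72% to 12.4%, while FOS and FOSB each stayed under 1% in every library. The members of the family that were higher in the knockouts were therefore those that contributed little to its total RNA.

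JUN (gene ID 3725, chromosome 1), the main partner of FOS proteins, had 44.93 and 62.17 FPKM in the vector libraries, 46.75 with MRCKα KO, 48.64 with MRCKβ KO, and 54.81 and 78.86 in the DKO libraries. Only DKO 2 lay outside the vector range. The log2 fold change in DKO was 0.30 (standard error 0.22), and 0.01 without DKO 2.

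JUNB (gene ID 3726, chromosome 19), a JUN relative with weaker transactivation, had 28.0 and 22.09 FPKM in the vector libraries, 30.73 with MRCKα KO, 40.28 with MRCKβ KO, and 37.28 and 44.41 in the DKO libraries. The knockout libraries were all above the vector libraries, with MRCKα KO closest to them. The log2 fold change in DKO was 0.68 (standard error 0.17), from 417 to 851 counts, and stayed between 0.53 and 0.86 when 1 library was left out. Within the JUN family, JUN made up 27.8% to 49.8% of the summed FPKM, JUNB 17.7% to 23.0% and JUND 32.5% to 52.3%. JUND, which was looked at after its values were seen, had 40.58 FPKM in vector 2 and 75.72 to 87.97 in the other 5 libraries.

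ATF3 (gene ID 467, chromosome 1), the stress-induced factor, had 4.56 and 3.15 FPKM in the vector libraries, 10.96 with MRCKα KO, 8.85 with MRCKβ KO, and 9.84 and 8.95 in the DKO libraries, from 67 to 240 counts. The 4 knockout libraries lay within a narrow range above the vector libraries, and MRCKα KO, not DKO, was the highest. In DKO the mean was 9.39 ± 0.629 FPKM against 3.85 ± 0.997 in vector (SD, n = 2 each), and the log2 fold change was 1.28 (standard error 0.25), with values from 1.03 to 1.59 when 1 library was left out. The count ratio to the pooled vector libraries was 2.88 in MRCKα KO (exact 95% counting interval 2.35 to 3.52) and 2.29 in MRCKβ KO (1.86 to 2.83), which compares these libraries and not the conditions.

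ARC (gene ID 23237, chromosome 8) had 0.1 and 0.13 FPKM in the vector libraries, 0.46 with MRCKα KO, 0.29 with MRCKβ KO, and 0.55 and 0.58 in the DKO libraries. The groups did not overlap and the DKO libraries differed by only 1.05-fold, but the values rest on 3 and 4 counts in vector, 14 and 9 in the single knockouts and 17 and 18 in DKO. The log2 fold change in DKO was 2.26 (standard error 0.60). The counting interval of the ratio to the pooled vector libraries reached from 1.53 to 11.9 in MRCKα KO and from 0.842 to 8.03 in MRCKβ KO, so that for MRCKβ KO it included equal levels.

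**Figure D2:**
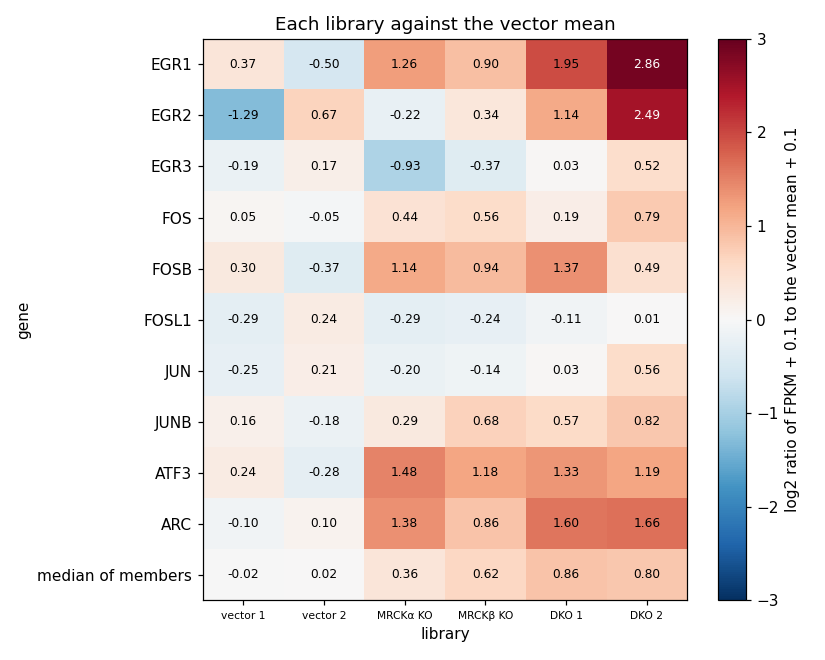
Log2 ratio of FPKM + 0.1 in each library (columns) to the vector mean + 0.1 for the 10 members and their median (rows), with red for higher and blue for lower. The median is 0.36 for MRCKα KO, 0.62 for MRCKβ KO, 0.86 for DKO 1 and 0.80 for DKO 2, and EGR2, EGR3, FOSL1 and JUN are below the vector mean in MRCKα KO.

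In the comparison of DKO with vector, the quasi-likelihood test of edgeR, adjusted by Benjamini-Hochberg, called 0.0% of the 13123 tested genes at an adjusted p under 0.05, so that no member was called. At an unadjusted p under 0.05 there were 313 genes (2.39%), and DESeq2 called 4 genes (0.024%), none of them a member. Of the 10 members, 9 passed the filter on low counts. Of these, 8 had a positive fold change, FOSL1 being the exception, against 6465 of all 13123 tested genes. Ranked by log2 fold change among all tested genes, EGR2 stood at place 7 from the top, EGR1 at 10, ARC at 14, ATF3 at 58, FOSB at 99, JUNB at 271, FOS at 439, JUN at 1215 and FOSL1 at 8483. The median of the tested members was 1.06 on the log2 scale against 0.00 for all tested genes. Since the genes were chosen with these values known, the ranks describe them and support nothing. Among the 3 members ranked highest, EGR1 rested on far more reads than EGR2, with at most 39 counts in any library, and ARC, with at most 18.

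**Figure D3:**
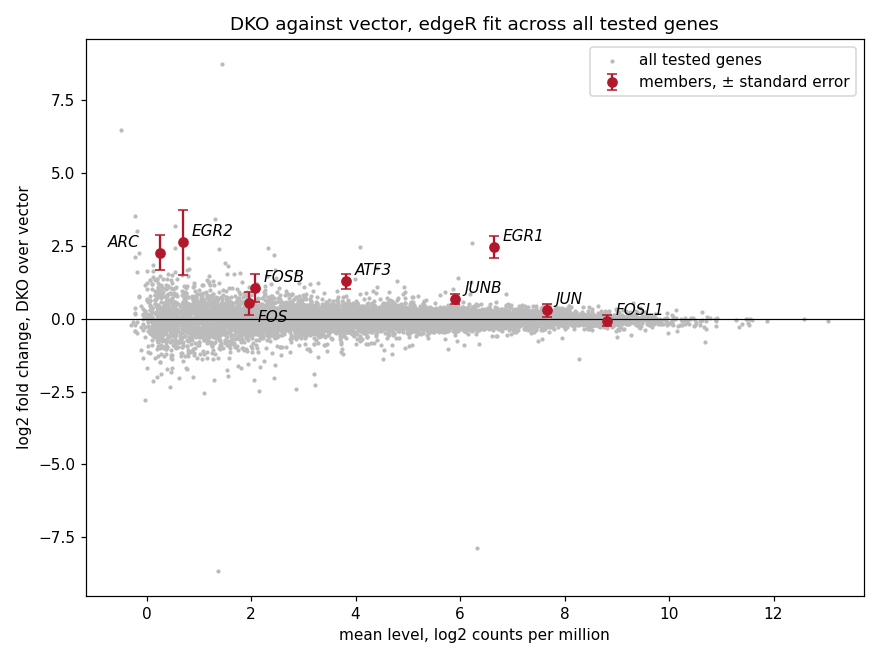
Log2 fold change of DKO over vector from the edgeR fit (y axis) against the mean level in log2 CPM (x axis) for 13123 tested genes (grey) and 9 members (red, bars are the standard error). EGR1 lies at 2.46, while FOSL1, the most abundant member, lies at -0.07.

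By the fold-change rule of the study, which drops genes more than 2-fold apart between replicates and asks for a 2-fold ratio of mean FPKM, 4 members were higher in DKO (EGR1, FOSB, ATF3 and ARC) and none was lower. The study also set poorly expressed genes aside, by a limit that is not given in the sources used here and was not applied. This bears on EGR3 and EGR2, and on ARC in the single knockouts. For DKO the study itself listed EGR1 and ARC among its top up-regulated genes, with the same log2 ratios as here (2.49 and 2.3). Over all genes, 1.02% were past the rule upward in DKO and 0.759% downward. EGR2 was left out by the replicate filter in each comparison. In MRCKα KO the same 4 genes were past it upward (1.94% of all genes) and EGR3 downward (2.48% of all genes). In MRCKβ KO, FOSB, ATF3 and ARC were past it upward (1.68% of all genes) and EGR1 stood at 1.88-fold, just outside, where FOSB stood at 2.06-fold, just inside. No member was past it downward in MRCKβ KO (1.84% of all genes). With 1 vector library left out as the control and the replicate filter of both kept, 3 members were past the threshold in MRCKα KO without vector 2 (5.01% of all genes in either direction) and 5 without vector 1 (5.22%), against 5 with both (4.42%). In MRCKβ KO the numbers were 1 without vector 2 (4.01%) and 4 without vector 1 (4.73%), against 3 with both (3.53%). The 3 comparisons share the vector libraries and are not independent of each other.

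Across the knockouts, 7 of the 10 members had both DKO libraries above both vector libraries, against 16.8% of all genes with a mean over 6 libraries of 0.1 FPKM or more, and none had both below (12.3% of all genes). For 6 members, EGR1, FOS, FOSB, JUNB, ATF3 and ARC, all 4 knockout libraries were above both vector libraries, against 6.7% of all such genes, and for none were all 4 below (5.07%). The number was 6 without vector 1 and 8 without vector 2, where the shares over all genes were 26.2% and 21.6%. MRCKα KO alone was above both vector libraries for the same 6 members (32.8% of all genes), as was MRCKβ KO (30.5% of all genes). MRCKα KO was below both for 2 members, EGR3 and FOSL1 (26.5% of all genes), and MRCKβ KO for 1, EGR3 (28.6% of all genes). These counts follow from values known when the members were chosen, and nothing is read from them. DKO 2 was the highest library for 7 of the 10 members and for 20.1% of all genes, and vector 2 the lowest for 5 members and for 24.9% of all genes, followed by vector 1 for 3 members and MRCKα KO for 2. The order of the 6 libraries was not shared by all members. Of the 15 pairs of libraries, ARC put 14 in the same order as EGR1, JUNB 13, FOS, FOSB and ATF3 12 each, EGR2 11, JUN 10, and EGR3 and FOSL1 8 each, where the median of 11705 other genes averaging 1 FPKM or more was 8. EGR2, EGR3 and ARC average less than 1 FPKM, so that this background does not match their level. The order of ARC rests on 3 to 18 counts per library.

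The genes most like EGR1 in this respect, with all 15 pairs in the same order, numbered 33 of the 11705, and the first 5 by the size of their differences were HIST2H4B, HIST2H4A, SGK1, SUOX and ATXN2. SGK1, a serum- and glucocorticoid-induced kinase, ran from 7.36 and 7.27 FPKM in vector to 11.13 with MRCKα KO, 8.88 with MRCKβ KO and 11.85 and 12.57 in DKO. HIST2H4A and HIST2H4B are copies of a histone gene with identical values, from 1.06 and 1.41 FPKM in vector to 3.01 and 3.78 in DKO, and their reads cannot be assigned to 1 copy. All likenesses rest on the same 6 libraries.

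The wider class of 36 other immediate early genes, from a hand-written list, was measured in the same way. This list and those that follow were written with earlier results of these data known, so that their counts are a description. Of the 35 tested, 0 were called after adjustment over all genes, 7 had an unadjusted p under 0.05 and a higher value in DKO, and 1 had a lower one, against 1.36% and 1.02% of all tested genes. Their median log2 fold change was 0.19, and 27 of the 35 were positive, against 6465 of all 13123 tested genes. All 4 knockout libraries were above both vector libraries for 9 of the 36 genes (against 6.7% of all genes) and below them for 1. TNFAIP3, an inhibitor of NF-κB signalling, had 1.74 and 2.47 FPKM in vector, 4.32 with MRCKα KO, 3.11 with MRCKβ KO and 5.41 and 8.56 in DKO (log2 fold change 1.73, standard error 0.29). NR4A3, an orphan nuclear receptor, was the 1 gene with a lower value, with 0.27 and 0.25 FPKM in vector and 0.15 and 0.11 in DKO from at most 16 counts (log2 fold change -1.49, standard error 0.59). Its relative NR4A1 had 2.29 and 0.94 FPKM in vector, 2.41 with MRCKα KO, 2.93 with MRCKβ KO and 2.99 and 2.44 in DKO, so that the knockout libraries were above vector but MRCKα KO and DKO 2 only just.

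Of 23 other genes of the EGR, FOS, JUN and ATF families and their partners, 19 were tested, 3 had an unadjusted p under 0.05 with a higher value in DKO and 0 with a lower one (1.36% and 1.02% of all tested genes), and the median log2 fold change was 0.06. The 3 genes were DDIT3, MAFF and MAFK, and they were also the 3 of 21 genes averaging 0.1 FPKM or more with all 4 knockout libraries above both vector libraries (6.7% of all genes). DDIT3, which encodes the stress factor CHOP, had 23.93 and 25.58 FPKM in vector, 35.17 with MRCKα KO, 35.82 with MRCKβ KO and 36.44 and 47.81 in DKO (log2 fold change 0.73, standard error 0.17). MAFF, a small MAF factor, had 24.69 and 20.24 FPKM in vector and 29.19 to 36.3 in the knockouts (0.58, standard error 0.16), and MAFK, of the same kind, 9.05 and 7.03 in vector and 10.52 to 14.05 in the knockouts (0.57, standard error 0.22). Adjusted over all genes, none of the 19 was called by edgeR.

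The upstream kinases and promoter-bound factors were 27 tested genes that include SRF and its ETS partners. Their median log2 fold change was 0.00, with 14 positive, against 6465 of all 13123 tested genes. There were 0 at an unadjusted p under 0.05 in either direction by edgeR. All 4 knockout libraries were above both vector libraries for 2 of the 27 (7.41%, against 6.7% of all genes), and these were SRF and EP300. SRF, which binds the CArG box, had 47.46 and 40.26 FPKM in vector, 47.93 with MRCKα KO, 51.61 with MRCKβ KO and 51.47 and 59.09 in DKO (log2 fold change 0.33, standard error 0.13).

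**Figure D4:**
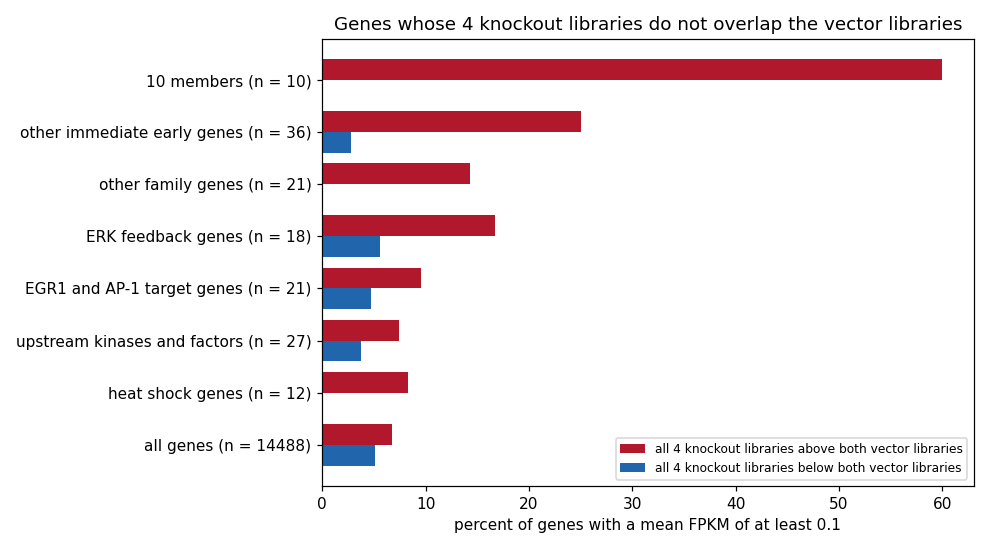
Percent of genes (x axis) in each list whose 4 knockout libraries are all above (red) or all below (blue) both vector libraries, among genes averaging 0.1 FPKM or more, with the number of such genes after each name. The share above is 60.0% for the members, whose values were known when they were chosen, 9 of 36 genes for other immediate early genes, 7.41% for upstream kinases and factors and 6.7% for all genes. The other lists, too, were written with earlier results of these data known.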

How the data were processed

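RNA of 6 MDA-MB-231 cultures was sequenced by BGI as single-end reads. The authors deposited expected counts (estimated reads per gene, not normalized) and FPKM values (fragments scaled to transcript length and library total, with 2 decimals) for RefSeq genes. The submitters' processing notes name HISAT, Bowtie2, RSEM and the build GRCh38.p11, and their versions and roles are not given in the sources used here. Rounding makes ratios of FPKM values under about 0.1 coarse. The library totals ranged from 10349898 to 10657857 counts, and intervals and limits cover counting error only.

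The members, gene lists and comparisons were chosen with earlier results of these data known. For DKO against vector, expected counts were rounded and fitted with edgeR 4.0.16 (filterByExpr, TMM, glmQLFit, glmQLFTest, no replicate block, Benjamini-Hochberg over all tested genes). A run on simulated data was required only to recover planted fold changes by their median, which does not measure false or missed calls. A standard error is the size of the log2 fold change divided by the root of its F value. Single knockouts have 1 library each and no p-value. Cultures of a group come from separate transductions or guides, and p-values measure the spread between these libraries. Count ratios have exact 95% binomial intervals against the pooled vector libraries. Genes were named by rule: the members, the targeted genes, in each list up to 4 genes with the largest fold change whose DKO and vector libraries do not overlap, and the 5 genes most like EGR1. Some of these genes are left unnamed. JUND, VEGFA, some markers and the comparison of all 4 knockout libraries with vector were chosen after their values were seen. Alternatives were DESeq2 1.42.0, other normalizations and filters, limma 3.58.1 after adding 0.1 or 1 to FPKM and taking log2, a single fit of the 6 libraries, the replicate number as a block, pseudocounts, and each library left out. Promoter windows came from RefSeq (GRCh38.p14).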

Additional observations from a re-analysis of the deposited data

Results flagged for a closer look

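Among the members and the genes picked by the naming rule, there were 3 in which the DKO libraries lay on one side of both vector libraries and a single knockout library on the other, a difference that was not tested. PTGS2, an inducible prostaglandin synthase, had 4.57 and 7.17 FPKM in DKO, 2.44 and 3.55 in vector and 2.42 in MRCKα KO, which is next to vector 1. ATF6, an ATF factor of the endoplasmic reticulum, had 32.2 and 35.0 FPKM in DKO, 30.32 and 29.52 in vector and 28.07 in MRCKβ KO. Its split was seen in FPKM only, since its counts were 1544 and 1319 in vector and 1431, between them, in MRCKβ KO. HSPB1, a small heat shock protein, had 179.82 and 186.74 FPKM in DKO, 194.74 and 203.22 in vector and 213.4 in MRCKβ KO. None of the 10 members showed such a split, and genes of the lists that the rule did not pick were not screened.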

How the results depend on the processing

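With no library left out, the number of genes called in DKO was 0 with edgeR and in each alternative except 4 with DESeq2 and 5 with the replicate block. The cause was not tested, and no member was among the genes called. Leaving out a library leaves 1 sample on a side, which is assumed to vary like the other group, so that only fold changes are given for such fits. Without DKO 1 the log2 fold change of EGR1 was 2.85, against 2.46 with all libraries. Nothing ties the replicate numbers to a batch, and the deviations of same-numbered libraries correlated at 0.302 over 13123 genes, which with 2 pairs does not establish a pairing. The number of members past the 2-fold rule in DKO (4, against 1.78% of all genes) was 2 with a pseudocount of 1 (0.0806%), 5 without the replicate filter (8.1%) and 3 to 4 with 1 library left out (3.85% to 5.26%). In MRCKα KO (5, 4.42%) it was 2 with a pseudocount of 1 (0.335%), 3 without vector 2 (9.92%) and 6 without vector 1 (10.7%). In MRCKβ KO (3, 3.53%) it was 1 with a pseudocount of 0.1 (2.79%), 1 with a pseudocount of 1 (0.0817%), 1 without vector 2 (8.18%) and 4 without vector 1 (11.1%). Leaving out a library also ends the replicate filter of its group. In a further setting, chosen after seeing the data, that of both vector libraries was kept. The numbers in DKO were then 3 without vector 2 (2.24% of all genes) and 4 without vector 1 (2.05%). In the same order they were 3 (5.01%) and 5 (5.22%) in MRCKα KO, and 1 (4.01%) and 4 (4.73%) in MRCKβ KO. With all libraries, EGR2 has a ratio only without the replicate filter, 5.93-fold in DKO. A pseudocount shrinks the ratio of genes with a low FPKM by construction. By FPKM, 7 members lay above vector in DKO (16.8% of all genes) and 6 in all knockouts (6.7%). The numbers were the same on TMM-scaled counts, which rescale the same libraries. The share over all genes was not computed on that scale, and nothing is read from the match. In DKO the fold change of EGR1, FOS, FOSB, JUN, JUNB and ATF3 kept its direction in 13 of 13 alternatives, that of EGR2 in 12 of 12, that of ARC in 10 of 10 and that of FOSL1 in 12 of 13. A kept direction can be slight, as without DKO 2 the log2 fold change was 0.01 for JUN and 0.18 for FOS. The alternatives refit the same libraries, and the members were chosen with these values known, so nothing is read from these numbers. EGR2, EGR3 and ARC had libraries under 10 counts, which limits what they can show.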

Other observations

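Genes often cited as EGR1 or AP-1 targets showed no common direction by their median. Of 19 tested, 0 were called by edgeR's quasi-likelihood test after adjustment over all genes, 3 had an unadjusted p under 0.05 with a higher value in DKO (CXCL8, ICAM1 and PTGS2) and 1 with a lower one (VEGFA, -0.47), against 1.36% and 1.02% of all tested genes, and the median log2 fold change was 0.00, as for all genes. CXCL8, a neutrophil chemokine, had 7.31 and 17.31 FPKM in vector, 28.52 with MRCKα KO, 19.61 with MRCKβ KO and 36.45 and 114.61 in DKO. ICAM1, an adhesion molecule, had 9.21 and 11.66 FPKM in vector, 17.12 with MRCKα KO, 18.46 with MRCKβ KO and 25.62 and 29.9 in DKO. IL6, a cytokine of the same list, had 2.64 and 6.74 FPKM in vector and 8.19 and 8.71 in DKO, while MRCKα KO (6.41) and MRCKβ KO (5.69) lay between the vector libraries.

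The ERK feedback genes and ERK-driven ETS factors, 18 tested, had 0.00 as the median log2 fold change, with 1 gene at an unadjusted p under 0.05 and a higher value in DKO (1.36% of all tested genes) and 0 with a lower one (1.02%). That gene was IER3, an early response gene that is also on the immediate early list, with 449.08 and 371.69 FPKM in vector, 394.79 with MRCKα KO, 543.35 with MRCKβ KO and 599.68 and 620.48 in DKO. CCND1, which encodes cyclin D1, had 230.29 and 211.06 FPKM in vector and 186.22 and 210.06 in DKO. The 12 heat shock genes had a median of -0.14, with 3 positive, against 6465 of all 13123 tested genes. By edgeR, 0 of them had an unadjusted p under 0.05. DNAJB1, a co-chaperone of that list, was the only one with all 4 knockout libraries above vector, with 106.73 and 90.68 FPKM in vector and 114.46 to 124.05 in the knockouts.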
